A study of Mus musculus with 5 samples.

Results

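The oligoadenylate synthetase (Oas) genes of the mouse were examined in sorted brain microglia, the resident macrophages of the brain, from 3 libraries labelled A20 deletion and 2 control libraries. The members were the 8 rows of the count table whose symbol was Oas1a, Oas1b, Oas1c, Oas1g, Oas2, Oas3, Oasl1 or Oasl2, out of 41388 genes in the table, and all 8 were found. In the A20 deletion group the labels give the genotype as eYFP-A20Dmg, without spelling out its alleles, and the design text calls these microglia fully deficient. In the control group the genotype was eYFP-A20fl/wt Cx3cr1-CreERT2/+, so the controls carry 1 floxed and 1 wild-type A20 allele and are called partially deficient. All mice were C57Bl/6, 4 weeks old, and received 2 mg tamoxifen on postnatal days 14 and 16. The cells were freed by papain digestion and sorted for eYFP. Cre in the controls is driven by the Cx3cr1 locus, and the labels do not name the driver in the A20 deletion group. Cx3cr1 is also active in macrophages other than microglia, so the eYFP sort may hold such cells. The labels do not say that the libraries of a group came from separate mice, and p-values therefore measure the spread between these libraries.

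Oas enzymes are sensors of double-stranded RNA that interferon induces. Once bound to such RNA, the active synthetases join ATP into short oligoadenylate chains, which set off the decay of viral and cellular RNA and so restrain translation. Tnfaip3 encodes A20, which edits ubiquitin chains and so limits NF-kB signalling, and the comparison addresses how the transcriptome of microglia differs between full and partial loss of it. Microglia answer to interferon, and Oas genes belong to the usual set of interferon-stimulated genes.

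The libraries held between 9726334 and 15275199 counts, so that 3 counts corresponded to between 0.196 and 0.308 CPM (counts-per-million). Levels below are CPM with TMM-scaled library totals, where TMM is edgeR's trimmed-mean scaling. The libraries differed in ways that the groups do not describe. Mitochondrial transcripts took 0.847% of the counts in A20 deletion replicate 1, 4.63% and 3.56% in A20 deletion replicates 2 and 3, and 1.19% and 0.852% in the controls. Xist was counted 616 times in A20 deletion replicate 1 and 780 times in control replicate 1, and 0 times in the other 3 libraries, so each group held Xist-positive and Xist-negative libraries. All 10 microglial markers were counted in every library, with summed levels of 38100 to 42800 CPM in A20 deletion libraries and 53200 and 58600 CPM in controls. Of these only Fcrls passed, as 2.38-fold lower in A20 deletion libraries (edgeR adjusted p = 0.0217), and Siglech had overlapping groups. The 6 markers of macrophages at the brain's borders summed to 101, 78.0 and 91.2 CPM in A20 deletion libraries and to 58.3 and 128 CPM in controls, and 0 passed. Tnfaip3 stood at 295, 277 and 348 CPM in A20 deletion libraries and at 454 and 94.7 CPM in controls. Its groups overlapped (edgeR adjusted p = 0.881), and counts over all exons do not check a deletion whose exons the labels do not give.

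The 8 genes lie on mouse chromosome 5 (GRCm38). Oasl2 (114896936 to 114912234) and Oasl1 (114923240 to 114937915) are neighbours on the plus strand. A second cluster runs from Oas2 (120730333 to 120749853, minus strand) and Oas3 (120753098 to 120777661, minus strand) over Oas1c (120800194 to 120812514, minus strand) and Oas1b (120812635 to 120824163, plus strand) to Oas1g (120876142 to 120887613, minus strand) and Oas1a (120896256 to 120907521, minus strand). Because most of these genes were higher together, the 250 bases before the RefSeq start were searched for GAAA, any 2 letters and GAAA again, the core of the interferon-stimulated response element, on both strands and with overlapping matches allowed. Of the 8 members 6 had a promoter in the RefSeq table (GRCm38.p6). Of these 6, 4 held a match, as did 2.98% of all 32851 promoter windows of that length in the table. Oasl1 and Oasl2 held none. The windows below are given in the direction of the gene, 5′ to 3′, with matches in capitals, for the 4 genes with a match and for Oasl1, which had none in this window. They are, for Oas1a chr5:120907526-120907775 (minus strand), for Oas1g chr5:120887614-120887863 (minus strand), for Oas3 chr5:120777660-120777909 (minus strand), for Oas1c chr5:120812515-120812764 (minus strand) and for Oasl1 chr5:114922990-114923239 (plus strand).
Oas1a: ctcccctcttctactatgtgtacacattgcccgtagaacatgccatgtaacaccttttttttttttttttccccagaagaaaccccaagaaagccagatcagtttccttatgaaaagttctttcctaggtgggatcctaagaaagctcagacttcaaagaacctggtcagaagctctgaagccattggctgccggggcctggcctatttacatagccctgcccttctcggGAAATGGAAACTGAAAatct
Oas1g: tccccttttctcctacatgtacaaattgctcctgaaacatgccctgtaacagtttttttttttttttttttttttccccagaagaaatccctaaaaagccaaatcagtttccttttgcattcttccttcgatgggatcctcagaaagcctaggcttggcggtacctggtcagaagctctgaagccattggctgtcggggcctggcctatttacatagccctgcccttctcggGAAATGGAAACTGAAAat
Oas3: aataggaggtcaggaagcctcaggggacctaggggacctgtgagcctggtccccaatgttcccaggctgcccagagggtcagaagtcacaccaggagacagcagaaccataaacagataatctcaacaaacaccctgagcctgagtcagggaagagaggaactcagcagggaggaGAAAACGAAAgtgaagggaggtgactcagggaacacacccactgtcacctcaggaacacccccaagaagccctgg
Oas1c: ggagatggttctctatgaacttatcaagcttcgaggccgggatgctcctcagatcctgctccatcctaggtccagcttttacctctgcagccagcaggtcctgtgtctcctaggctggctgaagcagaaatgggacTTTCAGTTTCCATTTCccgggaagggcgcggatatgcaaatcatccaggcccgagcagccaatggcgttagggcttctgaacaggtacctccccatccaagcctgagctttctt
Oasl1: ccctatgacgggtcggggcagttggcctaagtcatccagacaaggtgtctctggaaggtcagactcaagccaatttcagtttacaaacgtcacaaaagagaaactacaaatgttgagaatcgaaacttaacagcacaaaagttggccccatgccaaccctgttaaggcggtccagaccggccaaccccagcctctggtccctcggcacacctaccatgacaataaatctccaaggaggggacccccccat
Oas1a and Oas1g carried the same run of 16 letters, made of a pair of matches that share 4 letters, beginning 20 bases before the start in Oas1a and 18 bases before it in Oas1g. Oas1c held the same 16 letters on the opposite strand, beginning 114 bases before its start. Oas1b, which had no window of its own, begins at 120812635 on the plus strand, inside this window of Oas1c. The run lies between the starts of these 2 genes, nearer to that of Oas1b. In the direction of Oas1b it reads as in Oas1a and Oas1g. Oas3 held 1 match beginning 75 bases before its start. A match is a string of letters, not evidence of binding.

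Every Oas gene stood higher in all 3 A20 deletion libraries than in both controls. By edgeR's quasi-likelihood test, adjusted over 12240 genes, 6 of the 8 passed as higher (Oas1a, Oas1g, Oas2, Oas3, Oasl1 and Oasl2), between 6.34-fold and 29.6-fold, and 0 as lower. Oas1b and Oas1c did not pass. Over all genes tested 2.08% were called higher and 0.507% lower, and in 21.8% all A20 deletion libraries lay above both controls. The median log2 fold change was 3.64 over the 8 genes and 0.05 over all genes tested. The filter on low counts required about 0.776 CPM in 2 libraries. All 8 members met it, Oas1g in the A20 deletion libraries alone, so its presence among the tested genes already depended on its level there.

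**Figure D1:**
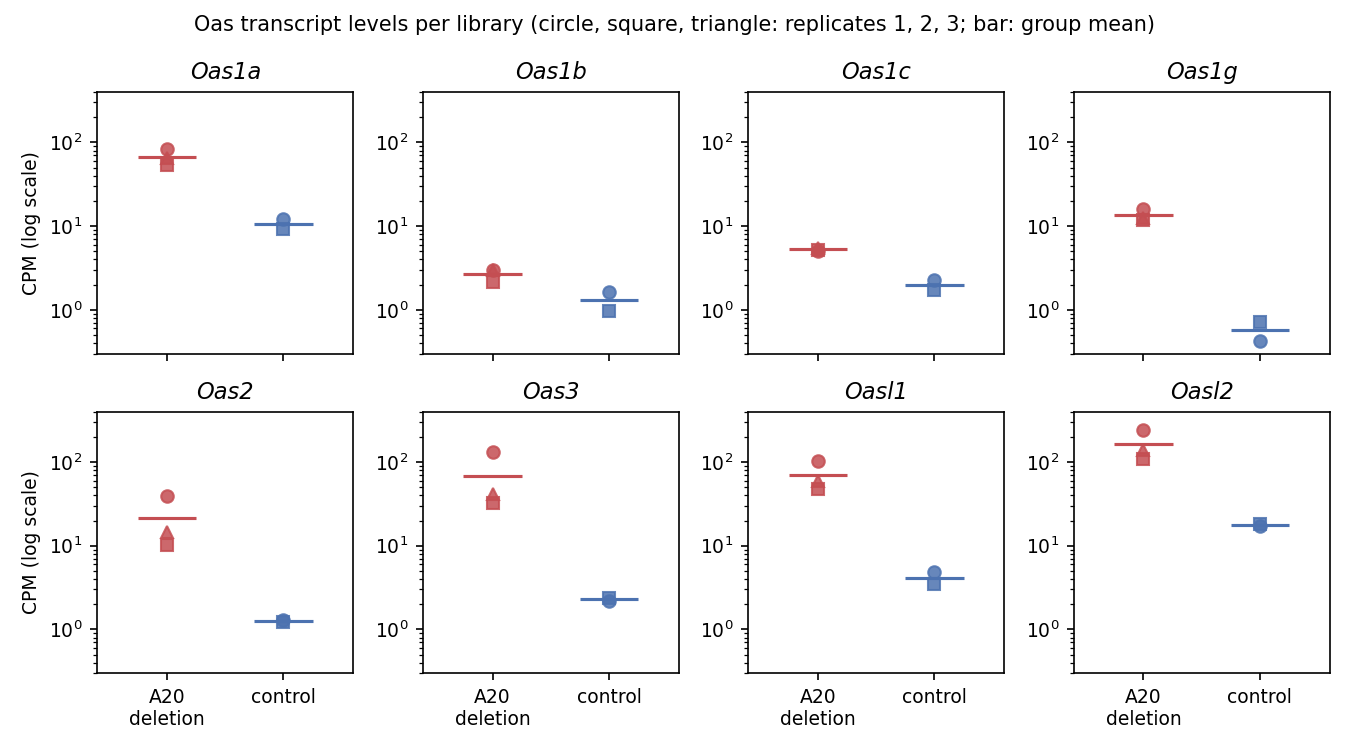
Levels of the 8 Oas genes as CPM on a log axis, by group, with 1 point per library and a bar at the group mean. In each panel all A20 deletion points lie above both control points, and for Oas2 and Oas3 the A20 deletion replicate 1 point stands well above replicates 2 and 3 (Oas3 at 130, 32.8 and 41.0 CPM).

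Oas1a, an active synthetase of the mouse, had 951, 688 and 634 counts in A20 deletion libraries and 169 and 142 in controls. That is 82.4, 54.1 and 64.6 CPM in A20 deletion libraries, against 12 and 9.11 CPM in controls. Group means were 67.0 ± 14.3 CPM in A20 deletion libraries (SD, n = 3) and 10.6 ± 2.06 CPM in controls (SD, n = 2). The lowest A20 deletion library was over 4 times as high as the higher control. Oas1a was 6.34-fold higher in A20 deletion libraries (log2 2.67, SE 0.26, edgeR adjusted p = 0.00655).

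Oas1g, the other active synthetase of the Oas1 cluster, was barely detected in controls. It had 183, 150 and 124 counts in A20 deletion libraries and 6 and 11 in controls, or 15.9, 11.8 and 12.6 CPM in A20 deletion libraries against 0.427 and 0.706 CPM in controls. This was a 23.2-fold difference (log2 4.53, SE 0.36, edgeR adjusted p = 0.00281), and its size rests on the 17 control counts. Oas1g took 16.1%, 17.9% and 16.4% of the counts of Oas1a and Oas1g together in A20 deletion libraries and 3.43% and 7.19% in controls. The exact 95% intervals of these shares ran from 13.8% to 20.7% in A20 deletion libraries and from 1.27% to 12.5% in controls, and they cover counting error only.

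These 2 genes are close copies, and the treatment of reads that fit both is not given in the sources used here. Of the 50-base windows of their annotated transcripts, 57.6% of those of Oas1a and 45.7% of those of Oas1g occur in another gene, chiefly in each other. Their split is therefore uncertain, while their sum does not depend on it except for reads that were discarded. Summed, they stood at 98.2, 65.9 and 77.2 CPM in A20 deletion libraries and at 12.4 and 9.81 CPM in controls (log2 fold change 2.85, SE 0.25, 7.23-fold, edgeR adjusted p = 0.0048).

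Oas1b and Oas1c were low in every library. Oas1b, which protects against flaviviruses in wild mice and is annotated in this strain as a polymorphic pseudogene, had 34, 27 and 29 counts in A20 deletion libraries and 23 and 15 in controls (2.95, 2.12 and 2.95 CPM against 1.64 and 0.962 CPM). Its difference was 1.04 on the log2 scale (SE 0.53) and did not pass (edgeR adjusted p = 0.298). Oas1c had 59, 66 and 54 counts in A20 deletion libraries and 32 and 27 in controls (5.11, 5.19 and 5.50 CPM against 2.28 and 1.73 CPM), with a log2 fold change of 1.39 (SE 0.37, edgeR adjusted p = 0.113). Oas1c passed with DESeq2 (adjusted p = 0.0226) and with edgeR without A20 deletion replicate 1 (adjusted p = 0.0359). Neither group overlapped the other in these 2 genes, although the differences did not pass in the edgeR test on all 5 libraries. Of the 50-base windows of Oas1c 15.1% occur in another gene, most often in the antisense gene Gm43069, and without a stated strand setting reads of both cannot be told apart.

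The other Oas1 genes of the cluster were almost absent. Oas1d, Oas1e and Oas1f had 0 counts in all 5 libraries, and Oas1h had 2 counts in A20 deletion libraries and 0 in controls. A count of 0 allows a level of up to 0.088 CPM over the A20 deletion libraries together and 0.101 CPM over the controls together.

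The larger synthetases Oas2 and Oas3 are built of repeated synthetase units, and OAS3 is regarded as a main producer of oligoadenylates in human cells. Oas2 had 452, 129 and 142 counts in A20 deletion libraries and 18 and 19 in controls, or 39.2, 10.1 and 14.5 CPM against 1.28 and 1.2 CPM. Oas3 had 1504, 417 and 403 counts in A20 deletion libraries and 31 and 37 in controls, or 130, 32.8 and 41.0 CPM against 2.21 and 2.37 CPM. In both genes the controls were close together and A20 deletion replicate 1 stood apart, at 3.18 times the mean of replicates 2 and 3 for Oas2 and 3.53 times for Oas3.

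Between groups the log2 difference was 4.08 for Oas2 (SE 0.68, 16.9-fold, edgeR adjusted p = 0.0314) and 4.89 for Oas3 (SE 0.73, 29.6-fold, edgeR adjusted p = 0.0224). Without A20 deletion replicate 1 these were 3.26 and 3.98 (edgeR adjusted p = 0.000938 and 0.000123), and with A20 deletion replicates 2 and 3 both omitted 4.97 and 5.83. With the mitochondrial share as a term they were 4.86 and 5.69. That share was high in A20 deletion replicates 2 and 3 alone. This fit therefore leans on replicate 1 against the controls, much as the omission of replicates 2 and 3 does. Oas2 did not pass without A20 deletion replicate 3 (edgeR adjusted p = 0.0638), and limma-voom, which called 1.36% of all genes as higher, called neither gene (adjusted p = 0.149 and 0.0849). Oas2 took 23.1%, 23.6% and 26.1% of the counts of both genes in A20 deletion libraries and 36.7% and 33.9% in controls. The control shares rest on 49 and 56 counts, with exact 95% intervals from 21.8% to 51.7%, which overlap those of the A20 deletion libraries (20.1% to 30.0%).

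The Oas-like genes encode a synthetase unit followed by ubiquitin-like repeats. Oasl1, which lacks synthetase activity and in mice limits translation of Irf7 mRNA, had 1183, 601 and 590 counts in A20 deletion libraries and 68 and 54 in controls. Its level was 102, 47.2 and 60.1 CPM in A20 deletion libraries against 4.84 and 3.46 CPM in controls (log2 fold change 4.07, SE 0.42, 16.9-fold, edgeR adjusted p = 0.00683). Oasl2, which retains synthetase activity in mice, was the member with the most reads, with 2771, 1372 and 1380 counts in A20 deletion libraries and 239 and 286 in controls. It stood at 240, 108 and 141 CPM in A20 deletion libraries and at 17.0 and 18.3 CPM in controls (log2 fold change 3.20, SE 0.38, 9.21-fold, edgeR adjusted p = 0.0104). Both genes were highest in A20 deletion replicate 1, at 1.91 times the mean of replicates 2 and 3 for Oasl1 and 1.93 times for Oasl2.

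**Figure D2:**
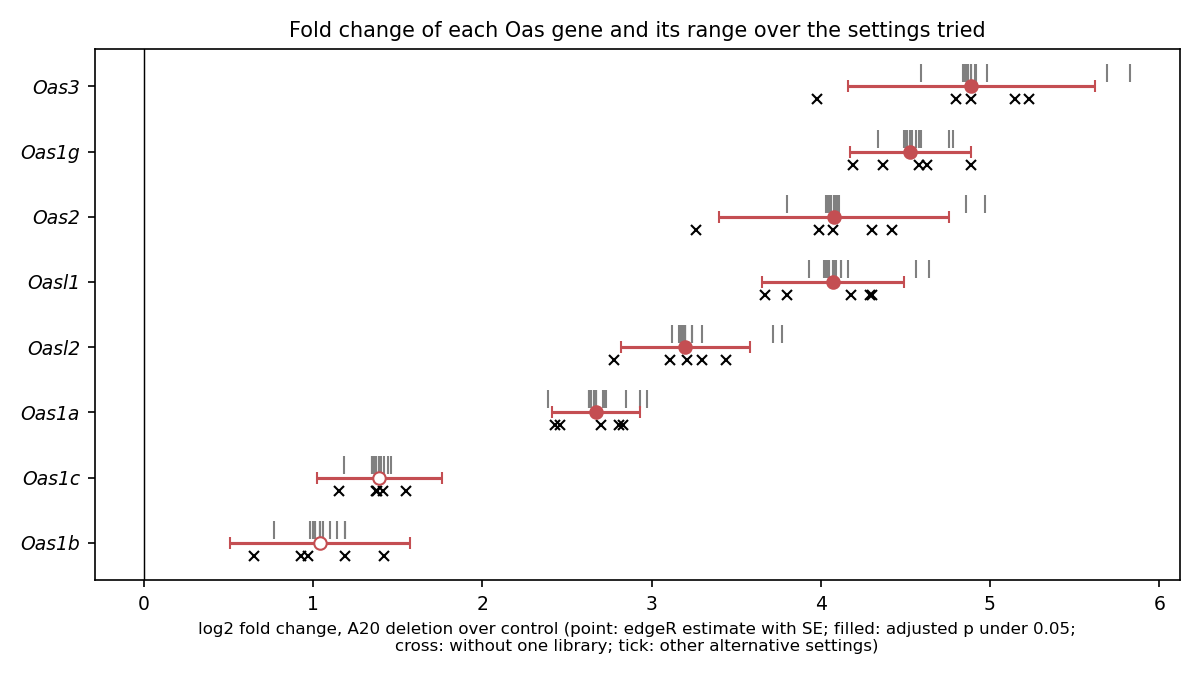
Log2 fold change of each Oas gene, A20 deletion over control, with its SE (point and bar, filled where the edgeR adjusted p is under 0.05), beside the estimates without 1 library (crosses) and under the other settings (ticks). All estimates lie above 0, from 0.65 for Oas1b to 5.83 for Oas3, and the widest ranges are those of Oas2 and Oas3.

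These calls rested on both controls. Without control replicate 1 edgeR called 0 of the 8 genes (7 at an unadjusted p under 0.05) and 0.123% of all genes as higher. Without control replicate 2 it called 0 of the 8 (6 at an unadjusted p under 0.05) and 0 of all genes. Without A20 deletion replicates 1, 2 or 3 it called 7, 6 and 5 of the 8 as higher, where 15.7%, 1.35% and 0.727% of all genes were higher. DESeq2 on all 5 libraries called 7 of the 8, all but Oas1b, and 6.08% of all genes as higher, and limma-voom called 4 of the 8. At an adjusted p under 0.01 edgeR called 3 of the 8 (Oas1a, Oas1g and Oasl1) and 0.458% of all genes as higher.

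Summed over the 8 genes, the level was 618, 271 and 342 CPM in A20 deletion libraries and 41.7 and 37.9 CPM in controls, a mean of 410.0 ± 183 CPM (SD, n = 3) and 39.8 ± 2.69 CPM (SD, n = 2). Per kilobase of annotated exon, which allows genes to be set side by side, A20 deletion libraries averaged 35.6 ± 7.59 CPM per kb for Oas1a, 26.8 ± 11.1 for Oasl1 and 25.5 ± 10.8 for Oasl2. Oas3 (9.63 ± 7.65 CPM per kb), Oas1g (5.74 ± 0.917) and Oas2 (4.78 ± 3.52) formed a middle tier, and Oas1c (2.19 ± 0.0856) and Oas1b (1.34 ± 0.24) the lowest (SD, n = 3). Within the upper and within the middle tier the ranges over libraries overlapped, while those of Oas1c and Oas1b did not. Tiers met at their edges, with the highest Oas3 value (18.4 CPM per kb) above the lowest of Oasl2 (16.9), and the lowest Oas2 value (2.28) just under the highest of Oas1c (2.29).

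The order in controls was different. There Oas1a averaged 5.60 ± 1.09 CPM per kb, Oasl2 2.77 ± 0.149 and Oasl1 1.59 ± 0.372, followed by Oas1c at 0.833 ± 0.16 and Oas1b at 0.652 ± 0.239 (SD, n = 2). Oas3 (0.324 ± 0.0168), Oas2 (0.281 ± 0.00979) and Oas1g (0.242 ± 0.0843) came last. Ranges overlapped between Oas1c and Oas1b and between Oas2 and Oas1g. Oas1g, Oas2 and Oas3 thus ranked below Oas1b and Oas1c in both controls and above them in all 3 A20 deletion libraries, also when the longest transcript was used as the length of a gene. With that length Oasl2, not Oas1a, was first in all 3 A20 deletion libraries and in control replicate 2. Some margins behind the change of rank were narrow. By longest transcript Oas3 (37 counts) stood at 0.503 CPM per kb in control replicate 2, just under Oas1b (15 counts) at 0.524. Per kilobase of exon Oas2 stood at 2.28 in A20 deletion replicate 2, just above Oas1c at 2.16. The rank of Oas1g also rests on its uncertain split from Oas1a.

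Oas1a made up 27.6%, 36.4% and 35.1% of the summed CPM per kb in A20 deletion libraries and 47.4% and 43.3% in controls. Oas1b took 0.934%, 1.35% and 1.52% in A20 deletion libraries and 6.11% and 4.33% in controls. Oas1c took 1.34%, 2.73% and 2.34% in A20 deletion libraries and 7.04% and 6.46% in controls. Oasl1 took 24.8%, 23% and 23.6% in A20 deletion libraries and 13.8% and 11.9% in controls. Shares of a total are tied to each other, so a larger share of 1 gene lowers those of the rest.

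**Figure D3:**
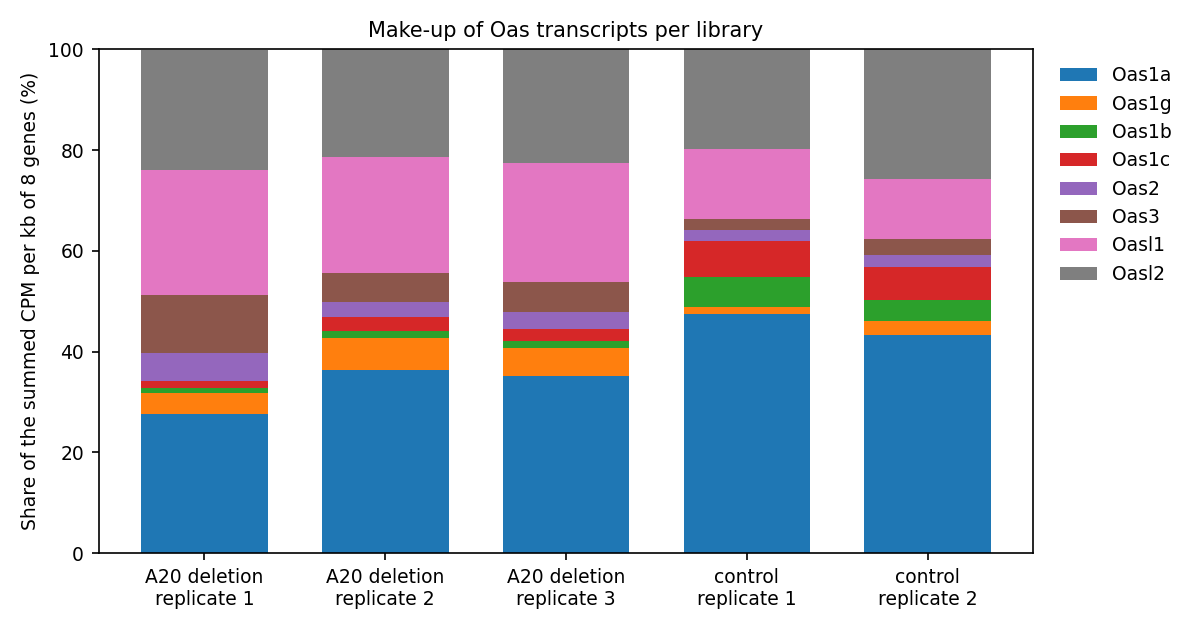
Share of each Oas gene in the summed CPM per kilobase of the 8 genes, in percent, as 1 stacked bar per library. Oas1a is the largest block in every bar and Oas1b and Oas1c are wider in the 2 control bars than in the 3 A20 deletion bars, where Oas3 reaches 11.6% in replicate 1.

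The 3 A20 deletion libraries differed most for the long Oas transcripts. The level in replicate 1 over the mean of replicates 2 and 3 was 3.53 for Oas3 (7069 exonic bases), 3.18 for Oas2 (4451), 1.93 for Oasl2 (6374) and 1.91 for Oasl1 (2608). It was 1.39 for Oas1a (1885), 1.30 for Oas1g (2340), 1.16 for Oas1b (1992) and 0.956 for Oas1c (2405). This ratio rose with length over all genes tested as well, with a median of 0.688 up to 1500 bases, 0.822 to 2500, 0.915 to 3500, 0.988 to 5000 and 1.17 above. The median log2 fold change between groups moved with length too, at 0.65 up to 1500 bases and -0.15 above 5000.

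The ratios of Oas2, Oas3 and Oasl1 were above the 95th percentile of genes in their length class (1.70, 2.24 and 1.57), and that of Oasl2 was not (2.24). Of the 19 double-stranded RNA sensor, interferon signalling and interferon brake genes with a ratio, 4 were above that percentile as well, Ddx58 (2.56), Usp18 (2.10), Zbp1 (1.81) and Irf7 (1.75). The parts of transcript length and of the mitochondrial share in this difference were not tested. With each library's length trend removed, an alternative chosen after seeing the data, the fold changes of Oas2 and Oas3 were 4.09 and 4.98 on the log2 scale. Oasl2 rose to 3.30. The shorter members fell, Oas1a to 2.39, Oas1b to 0.77, Oas1c to 1.18, Oas1g to 4.34 and Oasl1 to 3.93. The same 6 members passed as higher, as did 2.12% of all genes.

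**Figure D4:**
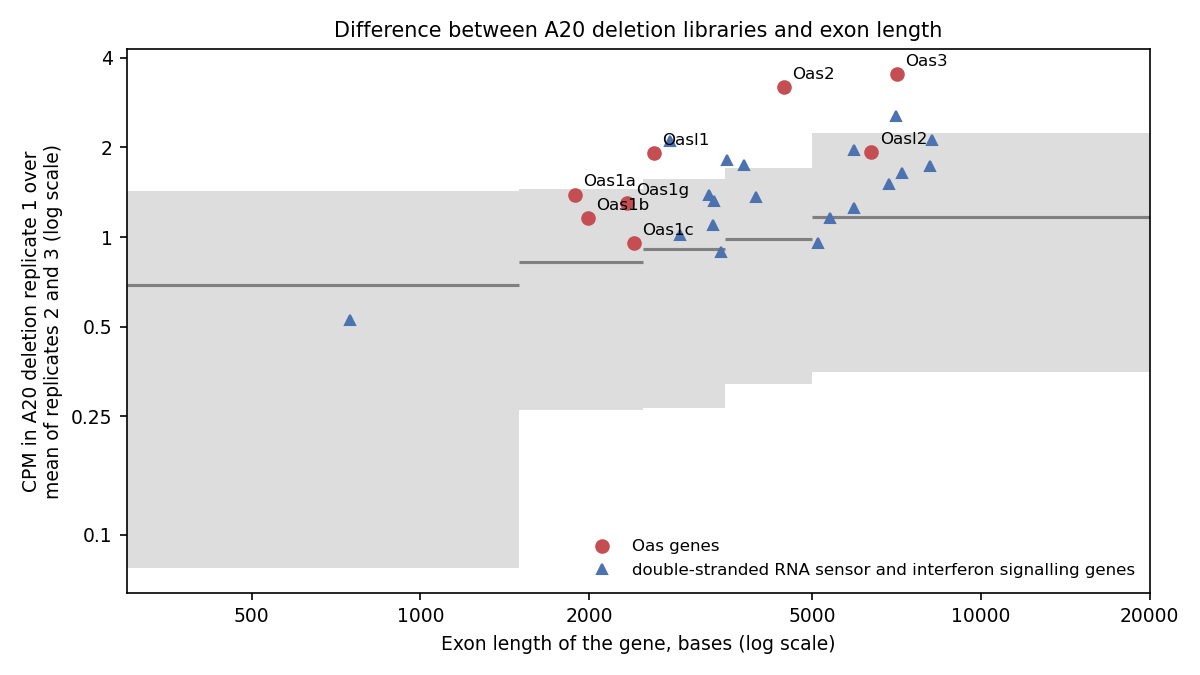
CPM in A20 deletion replicate 1 over the mean of replicates 2 and 3, against the exon length of the gene in bases, both on log axes, for the Oas genes (circles) and the double-stranded RNA sensor, interferon signalling and interferon brake genes (triangles). Grey lines are medians and grey bands the 5th to 95th percentiles of all genes tested in 5 length classes, and Oas2 (3.18), Oas3 (3.53) and Oasl1 (1.91) lie above the bands, as do 4 of the triangles, Ddx58 (2.56), Usp18 (2.10), Zbp1 (1.81) and Irf7 (1.75).

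Within the Xist-positive libraries, 1 in each group, the ratio of A20 deletion to control was 59.1 for Oas3, 37.1 for Oas1g, 30.6 for Oas2, 21.2 for Oasl1, 14.1 for Oasl2 and 6.85 for Oas1a. Among the Xist-negative libraries, A20 deletion replicates 2 and 3 over control replicate 2, it was 13.8 and 17.3 for Oas3, 16.7 and 17.9 for Oas1g, 8.32 and 11.9 for Oas2, and 13.6 and 17.3 for Oasl1. Oasl2 gave 5.88 and 7.66 and Oas1a 5.94 and 7.09 there. Oas1b gave 1.80 in the Xist-positive pair and 2.21 and 3.07 among the Xist-negative libraries, and Oas1c 2.25 in that pair and 3.0 and 3.18 among the others. All of these ratios were above 1. For Oas1g, Oas2, Oas3, Oasl1 and Oasl2 the Xist-positive pair gave the larger ratio, for Oas1b and Oas1c the smaller one, and for Oas1a it lay between the other two. With Xist as a term in the fit 6 of the 8 genes passed as higher, as did 4.6% of all genes.

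Of 4 other genes of the oligoadenylate pathway 0 passed in edgeR in either direction (0 at an unadjusted p under 0.05), with a median log2 fold change of -0.11. Abce1, which encodes a ribosome recycling factor, stood at 76.6, 58.1 and 52.5 CPM in A20 deletion libraries and at 84.3 and 80.4 CPM in controls. Its groups did not overlap, as was the case for 18.5% of all genes in this direction, and the difference of -0.40 on the log2 scale did not pass (edgeR adjusted p = 0.294). DESeq2 and limma-voom did not call it either (adjusted p = 0.274 and 0.285), while edgeR without A20 deletion replicate 1 called it lower (log2 -0.60, adjusted p = 0.0124), with 16.7% of all genes. Pde12, a phosphodiesterase that degrades oligoadenylates, had overlapping groups (25.8, 21.5 and 21.5 CPM in A20 deletion libraries, 23.3 and 28.1 CPM in controls), and so did Akap7 and Enpp1.

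Of 7 other double-stranded RNA sensor genes 3 passed as higher and 0 as lower. Zbp1, a sensor of Z-form nucleic acid, had 63.6, 30.1 and 40.3 CPM in A20 deletion libraries and 3.27 and 2.31 CPM in controls (log2 fold change 4.00, SE 0.41, edgeR adjusted p = 0.00683). Dhx58, which encodes the RIG-I-like regulator LGP2, was 4.70-fold higher, and Eif2ak2, the kinase PKR that halts translation upon double-stranded RNA, 3.06-fold higher (edgeR adjusted p = 0.00792 and 0.0134). The helicase sensor Ifih1 had 143, 64.9 and 69.6 CPM in A20 deletion libraries and 42.0 and 37.3 CPM in controls and did not pass (edgeR adjusted p = 0.142), though it did with DESeq2 (adjusted p = 0.0257) and in 6 of 20 alternatives in all (adjusted p between 2.4e-05 and 0.512). Neither did Ddx58, which encodes RIG-I, nor the RNA-editing Adar. In each the A20 deletion libraries lay above both controls, as they did in 21.8% of all genes tested. Both passed with no filter and with the mitochondrial share as a term, a fit that leans on A20 deletion replicate 1 against the controls. Adar also passed without A20 deletion replicate 1.

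Among 10 other genes of interferon signalling 2 passed as higher, Ifnb1 and Irf7, and 0 as lower. Irf7, the factor that amplifies interferon production, had 260, 118 and 180 CPM in A20 deletion libraries and 13.2 and 12 CPM in controls (log2 fold change 3.89, SE 0.37, edgeR adjusted p = 0.00655). Stat2 (117, 51.3 and 68.6 CPM in A20 deletion libraries, 32.4 and 28.2 CPM in controls) and Irf9 (157, 135 and 136 CPM against 96.3 and 102 CPM), which encode subunits of the complex that binds the interferon-stimulated response element, did not pass (edgeR adjusted p = 0.103 and 0.151). Stat2 passed with DESeq2 (adjusted p = 0.00608) and in 6 of 20 alternatives in all (adjusted p between 1.36e-06 and 0.49), and Irf9 without A20 deletion replicate 1 (edgeR adjusted p = 0.0313).

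Ifnb1, which encodes interferon beta, had 21, 48 and 31 counts in A20 deletion libraries and 0 in both controls. That is at least 29.0-fold higher, set against 3 counts over both controls together (edgeR adjusted p = 0.0267), and the gene met the filter through the A20 deletion libraries alone. Per library it stood at 1.82, 3.77 and 3.16 CPM in A20 deletion replicates 1 to 3, so it was lowest in replicate 1, the library in which 7 of the 8 Oas genes were highest or level with the highest. Ifnb1 is short (750 exonic bases). Its level in replicate 1 over the mean of replicates 2 and 3 was 0.525. This lay within the 5th to 95th percentiles of genes up to 1500 bases (0.0774 to 1.43). The call was lost without any 1 library other than A20 deletion replicate 1. The receptor chains Ifnar1 and Ifnar2 had overlapping groups, with log2 fold changes of -0.06 and 0.01. Of the interferon brakes Usp18 was 8.97-fold higher (edgeR adjusted p = 0.0134) and Socs1 did not pass. Cgas, which encodes a DNA sensor of related fold, had 31.2, 32.8 and 24.8 CPM in A20 deletion libraries and 24.5 and 24.3 CPM in controls and did not pass (edgeR adjusted p = 0.418).

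**Figure D5:**
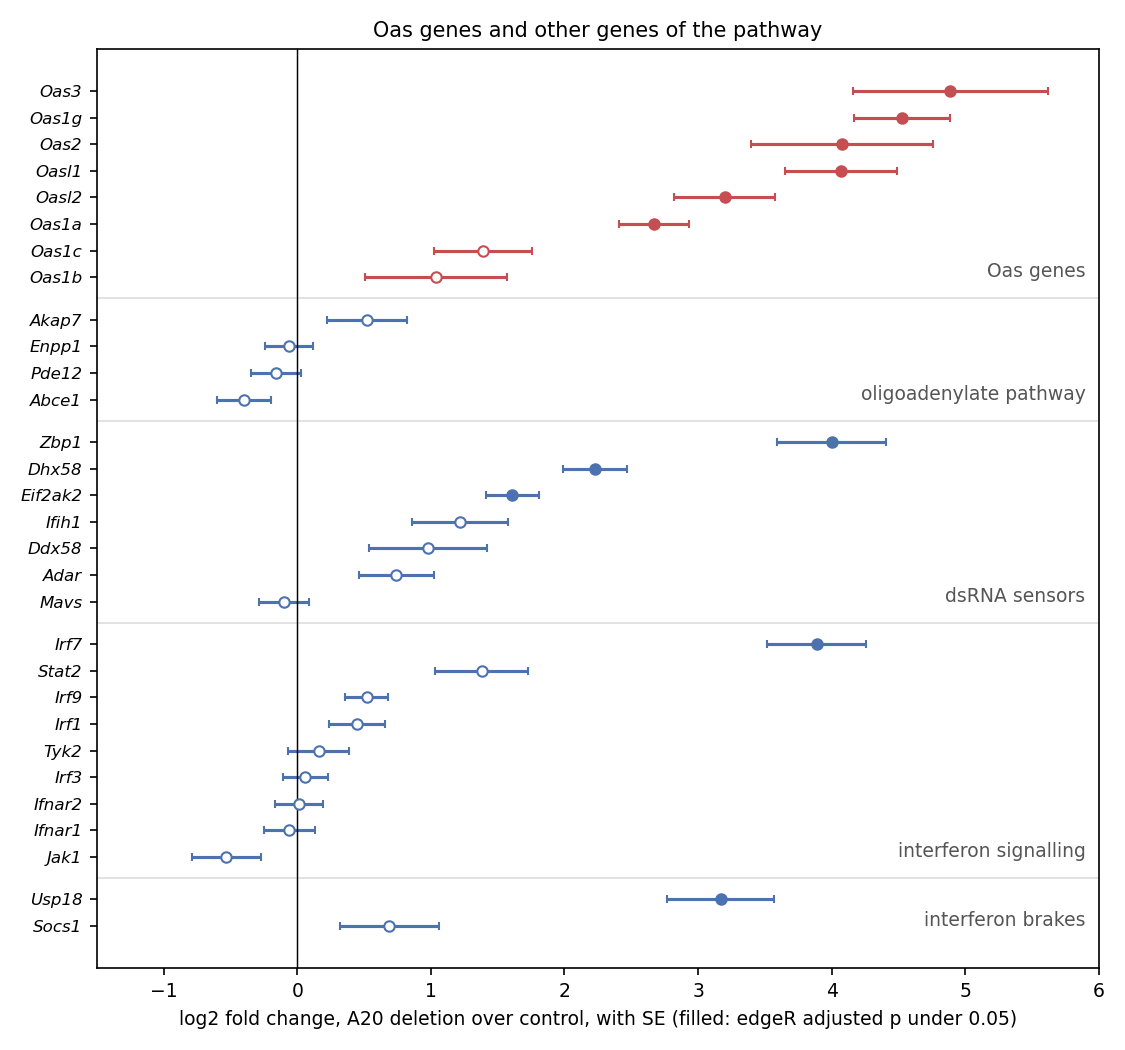
Log2 fold change with SE, A20 deletion over control, for the Oas genes and the other oligoadenylate pathway, double-stranded RNA sensor, interferon signalling and interferon brake lists, filled where the edgeR adjusted p is under 0.05. The Oas genes lie between 1.04 and 4.89, the other oligoadenylate pathway genes between -0.40 and 0.52, and Ifnb1 is left out because its controls had 0 counts.

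In all, 25 of 29 pathway genes beside the members were tested, 6 passed as higher and 0 as lower, and their median log2 fold change was 0.52. Over all genes tested 2.08% were called higher and 0.507% lower. Without A20 deletion replicate 1 edgeR called 10 of the 25 as higher and 2, Abce1 and Jak1, as lower. In that fit 15.7% of all genes were called higher and 16.7% lower.

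The genes whose pattern over the 5 libraries was most like the mean of the 8 Oas genes were Ms4a4c, Vcam1, Plac8, Cd72 and Axl, out of 8204 compared. Likeness was the mean absolute difference between centred log2 CPM values, which lay between 0.106 (Ms4a4c) and 0.136 (Axl). Vcam1, an adhesion molecule, had 236, 97.9 and 134 CPM in A20 deletion libraries and 15.4 and 15.8 CPM in controls, and was also nearest to Oasl2 alone (0.056). Zbp1 was nearest to Oasl1 (0.053), Ifi44 to Oas3 (0.304), C4b to Oas2 (0.165), H2-Q7 to Oas1g (0.141) and Cd22 to Oas1a (0.089). The low members Oas1b and Oas1c were nearest to Acot9 (0.044) and Ifi30 (0.05). With a smaller prior count of 0.5 the first 3 of the 5 stayed and Ifi204 and Isg15 replaced Cd72 and Axl. For single members Cp then replaced C4b beside Oas2 and Fam89a replaced Ifi30 beside Oas1c, and the other 6 nearest genes stayed.

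Some markers of other cells were higher in A20 deletion libraries, as the Oas genes were, and others overlapped or went the other way. Over all genes tested, all A20 deletion libraries lay above both controls in 21.8% and below both in 18.5%. The 10 T and NK cell markers summed to 8.23, 4.80 and 4.07 CPM in A20 deletion libraries and to 0.925 and 1.41 CPM in controls. The largest was Cd4 (3.99, 2.67 and 2.75 CPM against 0.569 and 1.03 CPM), the only 1 tested, which did not pass (edgeR adjusted p = 0.131). In controls Cd3e, Cd3d, Cd3g, Trbc2, Cd8a, Ncr1 and Cd2 had 0 counts. Cd3e, Cd3d and Cd3g had 3 to 9 counts in each A20 deletion library. Cd8a had 0 counts in A20 deletion replicates 2 and 3, Ncr1 in replicates 1 and 3, and Klrb1c had overlapping groups. The 6 monocyte markers summed to 42.4, 23.7 and 33.8 CPM in A20 deletion libraries and to 16 and 10.9 CPM in controls. Only Plac8 among them passed as higher. It made up most of the sum in A20 deletion libraries (30.7, 16.7 and 27.1 CPM, against 2.99 and 2.63 CPM in controls). Ccr2 lay below both controls in all A20 deletion libraries (8.14, 5.19 and 5.50 CPM against 11.5 and 8.21 CPM). Ly6c2 lay above both controls, with at most 12 counts in a library. Of 5 plasmacytoid dendritic cell markers only Bst2 passed as higher (4.63-fold, edgeR adjusted p = 0.00683). Bst2 had 407, 292 and 335 CPM in A20 deletion libraries and 64.8 and 84.1 CPM in controls. Siglech, which is also among the microglial markers, and Tcf4 had overlapping groups. Ly6d and Klk1 had at most 3 counts in a library.

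The 4 astrocyte markers summed to 44.6, 144 and 148 CPM in A20 deletion libraries and to 50 and 81.0 CPM in controls, most of it Slc1a2, whose groups overlapped. Aldh1l1 of that list passed as higher, with 8.06, 9.67 and 17.9 CPM in A20 deletion libraries and 1.64 and 2.31 CPM in controls (5.97-fold, edgeR adjusted p = 0.0343), and Gfap lay above both controls in all 3 A20 deletion libraries without passing. The 4 oligodendrocyte markers summed to 119, 211 and 209 CPM in A20 deletion libraries and to 93.8 and 112 CPM in controls, and 0 of the 3 tested passed. The 4 endothelial markers summed to 61.8, 45.3 and 41.8 CPM in A20 deletion libraries and to 52.8 and 59.3 CPM in controls, and 0 of them passed. Of these, Pecam1 lay below both controls in all A20 deletion libraries, while Cldn5, Flt1 and Cdh5 lay above them and were highest in A20 deletion replicate 1. Cldn5 stood at 19.8, 2.67 and 7.44 CPM in A20 deletion libraries and at 0.142 and 1.92 CPM in controls. The 4 neuron markers summed to 6.67, 7.94 and 6.52 CPM in A20 deletion libraries and to 4.69 and 1.99 CPM in controls. Among them only Syt1, with at most 11 counts in a library, had groups that did not overlap. The 6 neutrophil markers summed to 7.36, 1.73 and 4.58 CPM in A20 deletion libraries and 12.8 and 0.77 CPM in controls. For the 4 B cell markers the sums were 37.6, 49.6 and 50.6 CPM against 39.1 and 39.0 CPM. In each list 0 passed. The part of other cells in the Oas levels was not tested. In bulk RNA a larger share of cells that express a gene and more RNA per cell cannot be told apart.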

How the data were processed

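RNA was sequenced from sorted microglia in 3 A20 deletion and 2 control libraries. The authors deposited 1 table of raw read counts per Ensembl gene. Per the submitters' processing notes, the tools were STAR 2.4.0j, DESeq2 1.22.1 and featureCounts, with the build GRCm38, and no role is stated. The sources used here do not give the annotation release, strand setting or handling of multi-mapping reads. Of 41388 genes 40340 matched a GENCODE M21 symbol.

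The counts were fitted with edgeR 4.0.16 in R 4.3.3 (filterByExpr with minimum count 10 and total 15, TMM scaling, quasi-likelihood test, two-sided, no covariate, Benjamini-Hochberg over all 12240 genes tested, threshold 0.05). The SE of a log2 fold change is its size over the square root of F and is approximate. Named genes were all members, any gene of the pathway and marker lists, and the nearest genes by likeness. The members and lists were chosen with earlier results of these data known. Some genes of the pathway lists are not reported here. The procedure was tested on simulated data. Alternatives were other scalings, filters, DESeq2 1.42.0, limma-voom (limma 3.58.1), a robust fit, a stricter threshold, a replicate block, each library left out, A20 deletion replicates 2 and 3 omitted, terms for mitochondrial share and Xist, and Oas1a and Oas1g summed. Removal of the length trend was added after seeing the data. Exon lengths came from GENCODE M21, promoter sequences from RefSeq (GRCm38.p6).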

Additional observations from a re-analysis of the deposited data

How the results depend on the processing

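All 8 Oas genes kept a positive log2 fold change under every alternative that tested them. Of 6 members called, 3 passed at an adjusted p under 0.01 (0.458% of all genes higher) and 4 with limma-voom (1.36% of all genes higher). Without a single library the number ran from 0 (without either control) to 7. That 7 came without A20 deletion replicate 1, where 15.7% of all genes were called higher. All genes called numbered 317 and became 1701 with no filter, 1110 with DESeq2, 211 with limma-voom, 824 with Xist as a term, 58 at an adjusted p under 0.01, and 0 to 3923 without a single library. Pathway genes called numbered 6 and became 10 with no filter, 10 with the mitochondrial share as a term, 3 at an adjusted p under 0.01, and 0 to 12 without a single library. The cause was not tested. With no filter the overall median was 0.17 on the log2 scale, against 0.05. The log2 fold change of Pde12 reversed to 0.02 with A20 deletion replicates 2 and 3 omitted and to 0.01 with the length trend removed, and that of Tnfaip3 to -0.62 without control replicate 2 (range without a single library -0.62 to 1.65). Leaving out A20 deletion replicates 2 and 3 leaves 1 library, assumed to vary like the controls. The replicate numbers are not stated to mark a pairing. Same-numbered libraries deviated together with r = 0.26 and 0.167 across genes, and a replicate block called 260 genes (1.86% of genes higher), the 6 Oas genes called without it and 6 pathway genes. Depth limits Oas1b, Oas1c, Oas1g, Oas2 and Oas3, which had under 40 counts in each control library.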
